A study of Mus musculus with 11 samples.

Results

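The regenerating (Reg) family was followed through RNA sequencing of mouse pancreatic islets. Its members were taken by symbol from the gene tables, and 7 of the 55536 listed genes are members: Reg1, Reg2, Reg3a, Reg3b, Reg3d, Reg3g and Reg4. The study asked how repeated pregnancy changes islets and how islets then respond to insulin resistance. All mice were C57BL/6J females that entered at 9 weeks of age. Multipara mice had 3 pregnancies and were examined 3 weeks after the last delivery, and virgin mice without pregnancies served as their controls. S-961, a peptide that blocks the insulin receptor, was injected at 100 nmol/kg 2 times a day for 3 days. The data hold 3 libraries of virgin mice with S-961, 4 of multipara mice with S-961, 2 of untreated virgin mice and 2 of untreated multipara mice. Isolated islets carry exocrine tissue in varying amounts, so each library is a mixture of cells, and here fewer cells of a type and less RNA per cell cannot be told apart.

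Reg proteins are small secreted proteins with a C-type lectin fold. Reg1 and Reg2 are abundant products of the pancreatic acinar cell, the cell that makes digestive enzymes, and were first studied in regenerating islets. Reg3b and Reg3g are antibacterial lectins of the intestinal epithelium, and Reg3b is also the pancreatitis-associated protein, which acinar cells secrete under stress. Cytokines such as interleukin 6 and interleukin 22 induce Reg3 genes through the transcription factor STAT3. Reg3d is related to the islet neogenesis-associated protein, and Reg4 is best known from the intestine.

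Of the 7 genes, 6 lie in a cluster of 98.2 kb on chromosome 6 of the GRCm38 build, between bases 78370657 and 78468872, in the order Reg3b, Reg3d, Reg3a, Reg2, Reg1 and Reg3g. Reg4 lies alone on chromosome 3, at 98222156 to 98236748. None of the 7 overlaps another annotated gene. Reg1 and Reg2 are the closest pair in coding sequence, with 82.5% identical bases over 498 aligned, followed by Reg3b and Reg3g at 76.4% and Reg3a and Reg3b at 75.2%. No pair shares an identical stretch of 50 bases in its transcripts.

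The start regions of 4 clustered genes are shown because they lie in the same cluster and because Reg1 and Reg3d were called higher with S-961 below, while Reg2 and Reg3b were not. Each line gives 250 bases before and 50 after the RefSeq start in GRCm38.p6, 5′ to 3′ on the strand of the gene. Capitals mark CACCTG and TTTCCC on either strand. CACCTG is a form of the E-box CANNTG, and an E-box beside TTTCCC is the element that the acinar transcription complex PTF1 binds.
Reg1 (chr6:78425733-78426032, plus strand): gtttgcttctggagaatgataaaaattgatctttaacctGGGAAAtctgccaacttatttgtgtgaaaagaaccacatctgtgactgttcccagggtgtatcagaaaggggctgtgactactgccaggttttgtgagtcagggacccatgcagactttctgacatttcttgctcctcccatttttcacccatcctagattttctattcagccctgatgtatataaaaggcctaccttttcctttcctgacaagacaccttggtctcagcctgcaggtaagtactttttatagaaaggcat
Reg3d (chr6:78378816-78379115, minus strand): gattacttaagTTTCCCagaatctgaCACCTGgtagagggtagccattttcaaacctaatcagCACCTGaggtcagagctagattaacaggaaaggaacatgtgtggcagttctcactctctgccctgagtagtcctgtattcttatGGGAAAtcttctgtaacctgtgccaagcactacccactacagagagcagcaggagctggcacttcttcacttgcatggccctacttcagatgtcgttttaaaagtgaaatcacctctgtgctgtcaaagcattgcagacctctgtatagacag
Reg2 (chr6:78404905-78405204, plus strand): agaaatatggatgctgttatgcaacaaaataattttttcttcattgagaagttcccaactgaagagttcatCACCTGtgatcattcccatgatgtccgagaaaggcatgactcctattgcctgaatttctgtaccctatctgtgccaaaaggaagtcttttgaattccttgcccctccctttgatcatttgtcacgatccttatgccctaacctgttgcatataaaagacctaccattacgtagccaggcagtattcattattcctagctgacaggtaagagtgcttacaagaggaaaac
Reg3b (chr6:78370635-78370934, plus strand): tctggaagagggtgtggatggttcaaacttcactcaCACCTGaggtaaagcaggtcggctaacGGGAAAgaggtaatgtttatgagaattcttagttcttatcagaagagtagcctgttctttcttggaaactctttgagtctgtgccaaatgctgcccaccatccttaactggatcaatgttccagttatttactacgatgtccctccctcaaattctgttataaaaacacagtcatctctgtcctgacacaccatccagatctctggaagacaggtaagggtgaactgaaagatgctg
CACCTG was present in 5 of the 7 member windows and in 20.2% of all 32851 windows of this length. TTTCCC was present in 4 of 7 and in 25.2% of all. CACCTG and TTTCCC together stood in the windows of Reg3b and Reg3d, and in 4.86% of all. Reg1 and Reg3g held TTTCCC with an E-box of other letters, CATCTG and CATATG. The share of all windows with TTTCCC and any CANNTG was not counted. CANNTG, which takes in every CACCTG, was present in all 7 and in 72.3% of all. The STAT motif TTCNNNGAA was present in 2 of 7, again Reg3b and Reg3d, and in 8.3% of all. These are matches of letters and not bound sites.

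Library totals ran from 22028507 to 32234146 counts. The insulin genes took 35.3% to 41.4% of the counts in untreated libraries and 13.2% to 20.7% with S-961. The 31 acinar enzyme genes summed to 2635 to 19750 CPM, the counts scaled to library size with TMM factors, with S-961 and to 117 to 285 CPM untreated, with 29 or 30 of the 31 above 0 in every library. With S-961 all 3 virgin libraries and the multipara library 4 were lower in this sum, at 2635 to 10540 CPM, than multipara libraries 1 to 3, at 13910 to 19750 CPM. Proliferation transcripts split the same way: Mki67 stood at 93.8, 65.5 and 43.5 CPM in multipara S-961 libraries 1 to 3 and at 3.93 CPM in library 4, against 3.43, 13.8 and 3.04 CPM in the virgin S-961 libraries. The library labelled multipara S-961 replicate 4 thus stood with those labelled virgin in both measures. The mean log2 CPM of 6 stromal genes split by label instead, at 3.86 in this library and 4.02 to 5.13 in multipara S-961 libraries 1 to 3. The virgin S-961 libraries stood at 2.93 to 2.94. The labels were used as given, and whether they are right was not tested. The sign of every multipara against virgin value below rests on these labels. A list of 12 intestinal genes (Fabp1, Fabp2, Apoa1, Apoa4, Lct, Sis, Alpi, Muc2, Krt20, Cdh17, Cdx2 and Lypd8), chosen after the values were seen, was above 0 for all 12 in 3 libraries. These were multipara S-961 library 3, at a sum of 383 CPM, multipara S-961 library 1, at 70.1 CPM, and virgin S-961 library 3, at 31.1 CPM. The other 8 libraries stood between 0.567 and 3.84 CPM, with 2 to 8 of the 12 genes at 0 and Sis at 0 in 7 of them.

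Reg1 was the most abundant member in every library and rose with S-961. In untreated virgin mice its counts were 63 and 87, or 2.41 and 3.51 CPM, and in untreated multipara mice 113 and 98, or 5.04 and 6.18 CPM. With S-961 the virgin libraries held 2827, 4521 and 1203 counts, or 87.3, 136 and 38.9 CPM. The multipara S-961 libraries held 10279, 9994, 11518 and 3092 counts, or 278, 291, 296 and 91.4 CPM. Every S-961 library lay above every untreated library, and multipara S-961 library 4 lay among the virgin S-961 libraries. The rise with S-961 was 4.89 ± 0.68 (log2 fold change ± SE) in virgin mice and 5.42 ± 0.68 in multipara mice. The adjusted p values were 0.000552 and 0.000311 by edgeR's quasi-likelihood test, fitted over 17996 genes and adjusted by Benjamini-Hochberg.

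Reg3d, the relative of the islet neogenesis-associated protein, also rose with S-961, from a far lower level. Untreated virgin libraries held 3 and 1 counts and untreated multipara libraries 6 and 7, that is 0.0403 to 0.441 CPM in all. With S-961 the virgin libraries held 46, 91 and 24 counts, or 1.42, 2.75 and 0.776 CPM. The multipara S-961 libraries held 152, 196, 317 and 52 counts, or 4.12, 5.70, 8.15 and 1.54 CPM. The treated and untreated groups did not overlap, although the untreated values rest on few counts. The log2 rise was 4.33 ± 0.93 in virgin mice and 3.79 ± 0.80 in multipara mice, with adjusted p values of 0.0048 and 0.00457 by edgeR's quasi-likelihood test. Without untreated virgin library 2 the first became 0.0597, and without untreated multipara library 1 the second became 0.051, so that 1 member instead of 2 was called in each case.

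Reg1 and Reg3d were therefore the 2 members called higher with S-961 in virgin mice, among 7 tested, where 18.8% of all genes tested were called higher. The same 2 were called in multipara mice, where 18.2% of all genes were. All S-961 libraries stood above all untreated ones for 2 members in virgin mice and for 3 in multipara mice, against 32.8% and 24.5% of all genes tested. No member was called lower in either, where 17.6% and 19.4% of all genes were. The p values cover only the spread between these libraries, since the labels do not say which animals each came from.

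Reg2, the nearest relative of Reg1, did not pass the test in either parity group. Its untreated counts were 54 and 43 in virgin and 68 and 62 in multipara mice, or 1.73 to 3.91 CPM, a level close to that of Reg1 in the same libraries. With S-961 the virgin libraries held 0, 173 and 10 counts, or 0, 5.22 and 0.323 CPM. The multipara S-961 libraries held 282, 896, 2206 and 62 counts, or 7.64, 26.1, 56.7 and 1.83 CPM. The treated libraries thus lay on both sides of the untreated ones. The fitted log2 change was -0.03 ± 1.49 in virgin mice and 2.74 ± 1.51 in multipara mice, with adjusted p values of 0.99 and 0.173 by edgeR's quasi-likelihood test. In virgin S-961 library 1, a count of 0 beside 2827 Reg1 counts allows at most 3 Reg2 counts, or 0.0927 CPM, counting error alone considered.

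Reg3b, the pancreatitis-associated protein, was low in all groups except multipara S-961. Untreated libraries held 14 and 4 counts in virgin and 11 and 19 in multipara mice, or 0.161 to 1.20 CPM. With S-961 the virgin libraries held 2, 27 and 8 counts, or 0.0618, 0.814 and 0.259 CPM. The multipara S-961 libraries held 95, 121, 1084 and 27 counts, or 2.57, 3.52, 27.9 and 0.798 CPM. Library 3 stood far above the rest, and library 4 fell within the untreated range. The log2 change with S-961 was 0.12 ± 1.5 in virgin mice and 3.39 ± 1.44 in multipara mice, with adjusted p values of 0.963 and 0.0864 by edgeR's quasi-likelihood test. Without multipara S-961 library 3 the second value was 1.46, with an adjusted p of 0.238. DESeq2 called Reg3b in multipara mice, at an adjusted p of 0.0404. Without multipara S-961 library 4, edgeR's quasi-likelihood test called 4 members, Reg3b at 0.043 and Reg3a at 0.0409 besides Reg1 and Reg3d.

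Reg3a and Reg3g, the antibacterial lectins nearest to Reg3b, rested on few counts outside multipara S-961. Reg3a held 2, 1, 2 and 1 counts in the untreated libraries, 0, 4 and 0 in virgin S-961, and 14, 21, 213 and 14 in multipara S-961. In CPM the multipara S-961 values were 0.379, 0.611, 5.48 and 0.414, and all other libraries stood at or below 0.121. Every multipara S-961 library lay above every other library, with library 3 again the highest. The log2 change with S-961 in multipara mice was 4.40 ± 1.61, with an adjusted p of 0.0522 by edgeR's quasi-likelihood test, and 2.53 with an adjusted p of 0.104 without library 3. Reg3g held 19 and 2 counts in untreated virgin mice, 7 and 0 in untreated multipara mice, 1, 6 and 0 in virgin S-961 and 29, 1, 179 and 5 in multipara S-961. Its groups overlapped throughout, and of the multipara S-961 libraries only 1 and 3 exceeded the highest untreated level of 0.727 CPM, at 0.786 and 4.6 CPM. The log2 changes of -2.43 ± 1.88 and 3.01 ± 1.89 had adjusted p values of 0.341 and 0.23 by edgeR's quasi-likelihood test. Leaving out multipara S-961 library 3 took the second to 0.92, and leaving out untreated virgin library 1 took the first to -0.16.

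Reg4, the intestinal member, was at 0 in 8 of 11 libraries. It held 5 counts in virgin S-961 library 3, 23 in multipara S-961 library 1 and 73 in multipara S-961 library 3, or 0.162, 0.623 and 1.88 CPM. These were the same 3 libraries in which all 12 intestinal genes were above 0, and the order of the 3 was the same for both. All 4 untreated libraries were at 0. The 96 counts of the multipara S-961 group came from libraries 1 and 3 only. Per raw library total they were 12.6-fold a floor of 3 counts over the untreated multipara group. For the 5 counts of the virgin S-961 group the same ratio was 1.22-fold. TMM factors of 1.07 to 1.30 with S-961 and 0.72 to 0.84 untreated would lower both. Counting error of the treated counts is not included, so neither ratio is a lower bound. Reg3a did not follow the intestinal sum in this way, since virgin S-961 library 3 held no Reg3a count and multipara libraries 2 and 4 held 21 and 14. Reg3b likewise stood at 3.52 CPM in multipara S-961 library 2, where the intestinal sum was 3.84 CPM, and at 0.259 CPM in virgin S-961 library 3, where it was 31.1 CPM. Reg3g held 179 and 29 counts in multipara S-961 libraries 3 and 1, and 1 and 5 in multipara S-961 libraries 2 and 4. It held 0 in virgin S-961 library 3, and 19 in untreated virgin library 1, where the intestinal sum was 0.918 CPM. What part intestinal RNA has in the Reg3 values of multipara S-961 library 3 was not tested.

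**Figure D1:**
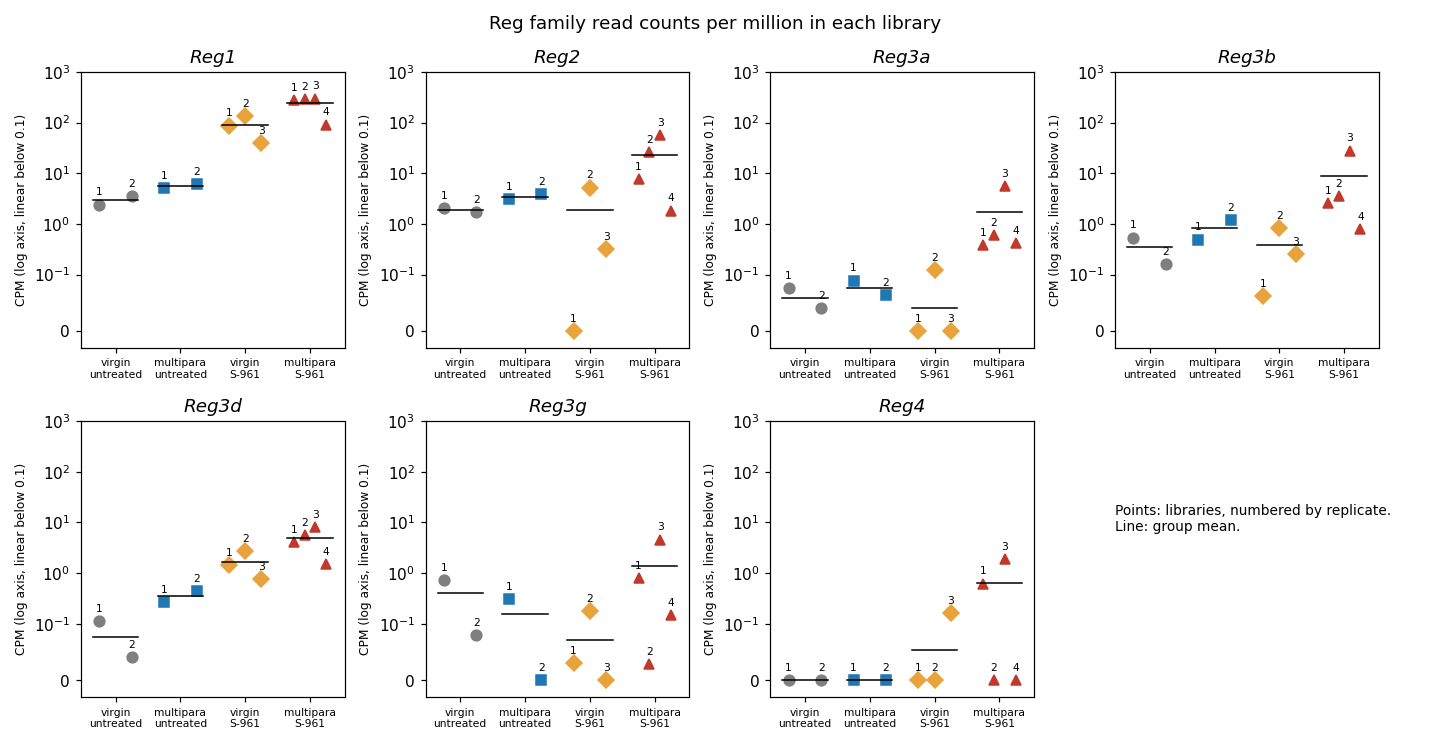
CPM of each Reg member (vertical axis, logarithmic above 0.1 and linear below) in the 4 groups, with a point per library numbered by replicate and a line at the group mean. Reg1 and Reg3d lie higher in every S-961 library than in any untreated one, while Reg4 leaves 0 in 3 libraries only.

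**Figure D2:**
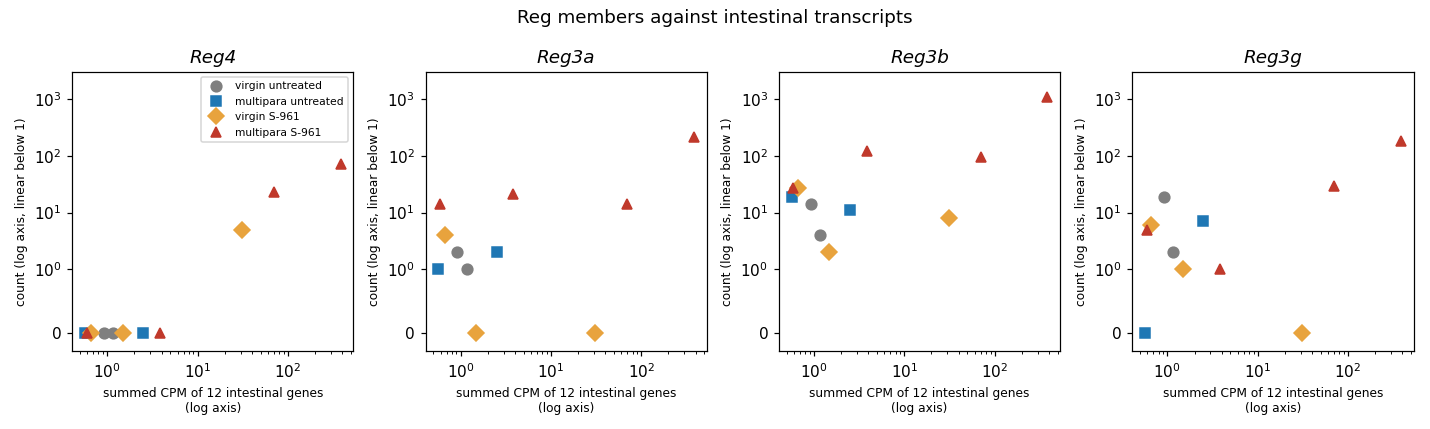
Counts of Reg4, Reg3a, Reg3b and Reg3g (vertical axis, logarithmic above 1) against the summed CPM of 12 intestinal genes (horizontal axis, logarithmic), with a point per library. Reg4 counts of 5, 23 and 73 fall at intestinal sums of 31.1, 70.1 and 383 CPM, and the other 8 libraries lie at 0.

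Per kilobase of exon, which allows levels to be set between genes, Reg1 led with S-961 at a mean of 193 ± 122 CPM per kb (SD, n = 7). Reg2 followed at 14.7 ± 22.0, Reg3b at 4.49 ± 8.86, Reg3d at 4.47 ± 3.43, Reg3a at 1.21 ± 2.41, Reg3g at 0.391 ± 0.799 and Reg4 at 0.373 ± 0.684. From Reg2 downward, neighbours in this order lay within each other's spread. In untreated islets the means were 4.74 ± 1.84 CPM per kb for Reg1 and 2.82 ± 1.03 for Reg2 (n = 4), then 0.522 ± 0.380 for Reg3b, 0.276 ± 0.227 for Reg3d, 0.132 ± 0.154 for Reg3g and 0.0815 ± 0.0254 for Reg3a. Reg1 and Reg2 were thus close together without treatment and far apart with it.

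The make-up of the family changed accordingly. Reg1 took 40.6%, 63.0%, 54.6% and 52.4% of the family counts in the untreated libraries and 73.9% to 98.3% with S-961. Reg2 took 31.2% to 34.8% untreated, a narrow range over 4 libraries, and 0% to 14.2% with S-961. The mean share of Reg2 was 33% ± 1.51 (SD, n = 4) against 4.43% ± 5.01 (n = 7), and that of Reg1 52.7% ± 9.24 against 91.5% ± 8.29. For both the exact two-sided permutation test of 7 against 4 libraries gave p = 0.00303, the smallest of 330 splits, and 0.00909 after adjustment over the 6 members compared. Reg3b fell from 6.85% to 1.57% (exact permutation p = 0.00909, adjusted 0.0182) and Reg3g from 4.27% to 0.248% (exact permutation p = 0.0242, adjusted 0.0364), the latter with 0% in untreated multipara library 2 and 12.3% in untreated virgin library 1. Reg3d held 2.33% and 1.74% (exact permutation p = 0.27). Shares of a sum depend on each other, so a rise of Reg1 lowers all others, and this test was chosen after the values were seen and pools both parity groups.

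**Figure D3:**
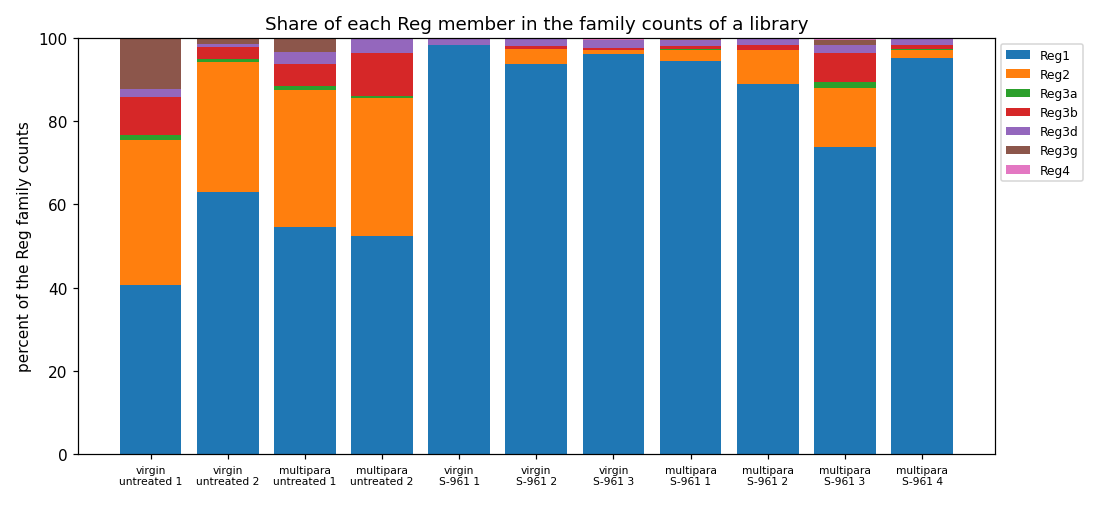
Share of each Reg member in the family counts of a library (percent, stacked to 100) for the 11 libraries. Reg2 takes 31.2% to 34.8% in the 4 untreated libraries and at most 14.2% in the 7 S-961 libraries.

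Acinar enzyme genes rose with S-961 together with Reg1. Of the 29 that passed the filter on low counts, 27 were called higher in virgin mice and 29 in multipara mice, with median log2 changes of 5.03 and 5.51, where the medians of all genes were -0.04 and 0.03. Cpb1, a carboxypeptidase, rose by 7.20 ± 0.76 and 6.93 ± 0.73, and Gp2, the main zymogen granule membrane glycoprotein, by 6.70 ± 0.75 and 6.71 ± 0.72. Cela2a, an elastase, rose by 5.87 ± 0.66 and 5.94 ± 0.66. Amy2a5, an amylase, could not be read in untreated islets, where its values were 0.306, 85.7, 50.3 and 0.819 CPM while the 5 near-identical Amy2a copies summed to 67.9, 95.3, 123 and 122 CPM. It was therefore left out of the ratios that follow. Of the 5 acinar regulators, Bhlha15, a factor of secretory cells also made in the islets, rose by 1.83 ± 0.35 and 1.66 ± 0.34, and Rbpjl, a PTF1 subunit, by 2.52 ± 0.75 and 2.13 ± 0.69. Gata4 rose by 2.11 ± 0.62 in multipara mice. Ptf1a and Nr5a2 were not called. The adjusted p values of the changes named here ran below 0.05 by edgeR's quasi-likelihood test.

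Relative to these enzymes Reg1 moved little. It held 12.9, 15.03 and 17.0 counts per 1000 acinar enzyme counts in virgin S-961, and 17.0, 20.1, 26.1 and 15.4 in multipara S-961. The untreated libraries held 20.7 and 19.2 in virgin and 21.5 and 26.1 in multipara mice, so the range was 12.9 to 26.1 over libraries whose Reg1 level ranged from 2.41 to 296 CPM. Reg2 held 9.48 to 17.7 per 1000 untreated and 0 to 5 with S-961, without overlap. The acinar enzyme counts that it was set against were 3047 to 5248 per library untreated and 70849 to 605561 with S-961. Any gene that rose less than these falls in this ratio, so the lack of overlap is no separate result about Reg2. How many of all genes do so was not counted. Reg3b held 0.882 to 5.05 untreated and 0.00911 to 2.46 with S-961, and Reg3d 0.221 to 1.86 and 0.210 to 0.718, both with overlap. How far the rise of Reg1 with S-961 reflects more acinar tissue in the sample and how far more Reg1 per acinar cell cannot be told apart from these libraries, as treatment and acinar content move together.

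Within the 7 S-961 libraries Reg1 followed the acinar score, the mean log2 CPM of the 29 enzymes, with Pearson's r = 0.97 (exact permutation p = 0.00238, adjusted 0.0119 over 5 members) and Spearman's rho = 0.82 (exact permutation p = 0.0341, adjusted 0.0828). Without the 2 libraries farthest from the median, virgin 3 and multipara 1, r was 0.97. Reg3d followed with r = 0.89 (exact permutation p = 0.00635, adjusted 0.0159) and rho = 0.82, and r was 0.93 without those libraries. Reg2, Reg3b and Reg3a gave r of 0.69, 0.65 and 0.63 (exact permutation p = 0.0802, 0.115 and 0.135). Reg3g and Reg4 did not pass the filter on low counts over these 7 libraries and were not correlated. Other lists ran as close to the members as the acinar one, as a description over the same 7 libraries. The duct score gave r of 0.93 for Reg1, 0.92 for Reg3d, 0.92 for Reg2, 0.87 for Reg3b and 0.78 for Reg3a, and the proliferation score 0.91 for Reg1 and 0.87 for Reg3d. A score of 11 acute phase and STAT3 target genes, taken up below, gave r of 0.90 for Reg3a and 0.87 for Reg3b. It stood at 3.06 in multipara S-961 library 3, where both members were also highest, and at 0.69 to 1.31 in the other S-961 libraries. These r values therefore lean on that library, and r without it is not given. For Reg1, Reg3d and Reg2 this score gave 0.51, 0.65 and 0.68. Which of these lists the members follow cannot be told apart here. The adjusted p values of Reg1 and Reg3d exceeded 0.05 without virgin S-961 library 2 (both 0.0694) and without virgin S-961 library 3 (0.111 and 0.142), and that of Reg3d also without multipara S-961 library 2 (0.0694), while r stayed between 0.84 and 0.99. The untreated libraries were not pooled with these, since they form a cluster of their own at scores of 1.02 to 2.13 against 4.98 to 7.86. The 7 S-961 libraries pool both parity labels, and the permutations ignored them. Acinar scores were 4.98 to 6.92 in the virgin and 6.35 to 7.86 in the multipara libraries.

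**Figure D4:**
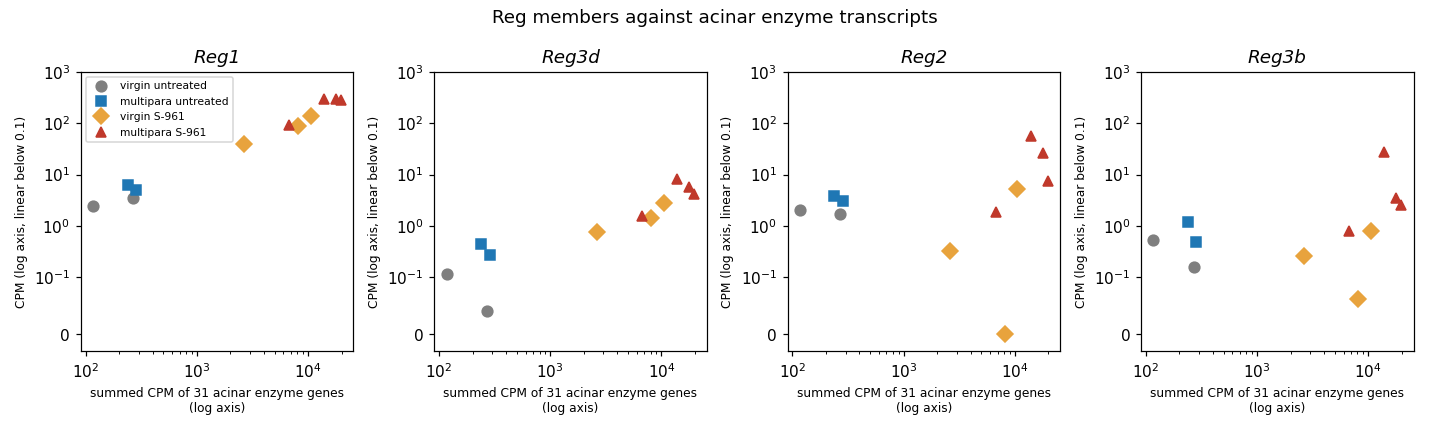
CPM of Reg1, Reg3d, Reg2 and Reg3b (vertical axis, logarithmic above 0.1) against the summed CPM of 31 acinar enzyme genes (horizontal axis, logarithmic), with a point per library. Reg1 lies along a line from the untreated libraries at 117 to 285 CPM to the S-961 libraries at 2635 to 19750 CPM, whereas Reg2 scatters with S-961 between 0 and 56.7 CPM.

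As a description only, the genes most like each member over all 11 libraries were taken among 12570 genes with a mean log2 CPM of at least 1. These r values also take in the gap between S-961 and untreated libraries. For Reg1 the nearest genes were Zg16 (r = 0.998), Try4 (0.997) and Klk1 (0.996), all secretory products of acinar cells. For Reg3d they were Klf10 (0.974), Spink1 (0.963), the acinar trypsin inhibitor, and Amy2b (0.96). Reg3a was most like the collagen genes Col3a1 (0.966) and Col6a2 (0.918) and Nfix (0.912). Reg3b was most like Pde4b (0.885), Col3a1 (0.873) and Ugdh (0.87), and Reg3g like Arhgap26 (0.899), Trp53inp1 (0.897) and Spata13 (0.882). Reg2 had Gm11175 (0.875), Brca2 (0.845) and Hmgb3 (0.843). Reg4 was most like Slc5a1 (0.948), Mttp (0.945) and Cdhr2 (0.917), which serve sugar uptake, lipid export and the brush border in the intestine. Col3a1 stood at 108 CPM in multipara S-961 library 3 and at 17.7 to 48.6 CPM elsewhere. Its part in the Reg3 values was not tested.

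The libraries labelled multipara and virgin were then compared under S-961. All 5 members that passed the filter had positive fold changes, and none was called. The log2 values were 1.48 ± 0.49 for Reg1, 3.67 ± 1.42 for Reg2, 5.31 ± 1.5 for Reg3a, 4.54 ± 1.35 for Reg3b and 1.59 ± 0.59 for Reg3d. Their adjusted p values ran from 0.319 to 0.453 by edgeR's quasi-likelihood test. Of all 16784 genes tested 0% were called, with 1630 at an unadjusted p under 0.05, and DESeq2 called 348. DESeq2 called 1 member, Reg3b, at an adjusted p of 0.0476. For Reg3a all 4 multipara libraries stood above all 3 virgin ones, a separation that 5.23% of all genes tested showed. For the other 4 the groups overlapped, with multipara library 4 among the virgin libraries.

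The acinar score was higher in the same direction, at 6.35 to 7.86 in multipara and 4.98 to 6.92 in virgin S-961 libraries, and 29 of 29 acinar enzymes had a positive fold change with a median of 1.06. None of the 29 was called. With the acinar score as a covariate in the fit the Reg1 value was 0.36 ± 0.28, Reg3d 0.52 ± 0.57 and Reg2 1.82 ± 1.56. Reg3a was 4.28 ± 1.84 and Reg3b 3.54 ± 1.88, and no member was called. The sum of the intestinal list ran from 0.591 to 383 CPM in multipara and from 0.664 to 31.1 CPM in virgin S-961 libraries. With the intestinal score as a covariate, chosen after the values were seen, Reg3b was 2.70 ± 1.10 and Reg3a 3.84 ± 1.30. Without multipara S-961 library 3 Reg3b was 2.60, Reg3a 3.40 and Reg2 2.69, and without virgin S-961 library 2 they were 5.76, 8.92 and 7.17. Reg1 ranged from 1.12 to 1.94 as single libraries were left out, and its lowest adjusted p among these was 0.0516. Without multipara S-961 library 4, edgeR's quasi-likelihood test called 525 genes of all tested and no Reg member. The log2 values then were 1.75 for Reg1, 4.05 for Reg2, 5.63 for Reg3a, 4.92 for Reg3b and 1.89 for Reg3d, with adjusted p values from 0.0516 to 0.148.

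**Figure D5:**
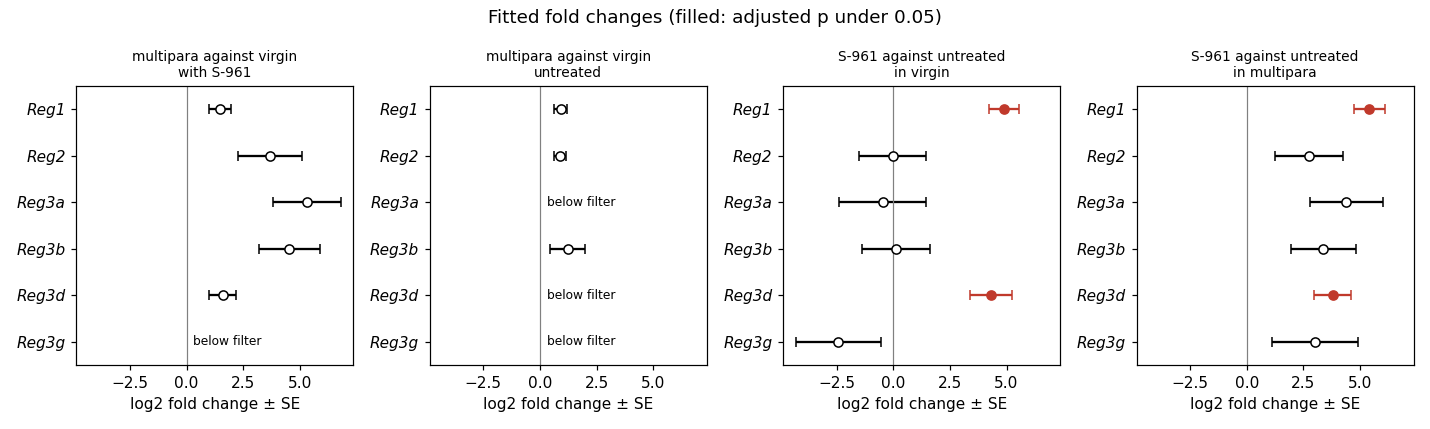
Log2 fold change with its SE (horizontal axis) of 6 Reg members in 4 comparisons, filled where the adjusted p was under 0.05. Reg1 and Reg3d are filled in both comparisons of S-961 with no treatment, and no member is filled in the comparisons of multipara with virgin.

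In untreated islets 3 members passed the filter. Reg1 was higher by 0.92 ± 0.28 on the log2 scale in multipara than in virgin mice, Reg2 by 0.87 ± 0.27 and Reg3b by 1.23 ± 0.77. The adjusted p values were 0.719, 0.719 and 0.726 by edgeR's quasi-likelihood test. Of 15812 genes 0% were called, with 889 at an unadjusted p under 0.05 and 54 called by DESeq2. With 2 libraries against 2, both multipara libraries stood above both virgin ones for Reg1, Reg2 and Reg3d, and for 17.2% of all genes tested. Reg3d, below the filter, stood at 0.268 and 0.441 CPM against 0.115 and 0.0403 CPM. The acinar score was 2.13 and 2.05 in multipara and 1.02 and 1.75 in virgin libraries, again higher in the same direction. Untreated multipara library 1 also had the highest immune score of all libraries, at 5.42 against 1.65 to 3.18 elsewhere, while its Reg3b level of 0.491 CPM lay within the range of the other untreated libraries.

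Whether the response to S-961 differed with parity was tested as an interaction. Of 17996 genes 0% were called, with 1179 at an unadjusted p under 0.05 and 88 called by DESeq2. The differences were 0.53 ± 0.80 for Reg1, 2.77 ± 2.05 for Reg2, 4.88 ± 2.67 for Reg3a, 3.27 ± 2.03 for Reg3b, -0.53 ± 1.12 for Reg3d and 5.44 ± 2.66 for Reg3g. The lowest adjusted p among the members was 0.768 by edgeR's quasi-likelihood test. For Reg1 and Reg3d the response was thus called in both parity groups without a detectable difference between them, and the standard errors leave room for a change of either sign.

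The signals that act on Reg genes were read from lists. Of the 20 cytokine and receptor genes 17 passed the filter, and 2 were called higher and 2 lower with S-961 in virgin mice and 3 higher and 4 lower in multipara mice. Of all genes tested 18.8% were called higher and 17.6% lower in virgin mice, and 18.2% and 19.4% in multipara mice, so these counts are near the background. Il6ra, the interleukin 6 receptor, fell by 1.20 ± 0.20 in virgin mice, from 222 and 247 CPM to 95.7, 101 and 109 CPM, and by 0.66 ± 0.19 in multipara mice. Il11ra1, the interleukin 11 receptor, fell by 0.87 ± 0.18 and by 0.95 ± 0.17 in virgin and multipara mice. Lifr, the leukemia inhibitory factor receptor, rose by 1.17 ± 0.23 and 0.90 ± 0.22. Il10rb and Il17ra fell by 0.68 ± 0.15 and by 0.57 ± 0.15 in multipara mice. Each of these passed edgeR's quasi-likelihood test at an adjusted p under 0.05. Il6 itself stood at 0.0905 to 0.849 CPM in every S-961 library and at 0, 0, 0.0446 and 0 CPM untreated, a call that rests on few counts. Il22ra1 was likewise called in multipara mice, from 0 in both untreated libraries to 0.118 to 0.705 CPM. Il6st, the shared receptor subunit, changed by 0.28 ± 0.23 and 0.24 ± 0.22, and Extl3, proposed as a receptor for Reg proteins, by -0.12 ± 0.21 and -0.36 ± 0.19, neither called. Il22 was at 0 or nearly so throughout, with a mean of 0.00939 CPM.

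Of 7 JAK and STAT3 pathway genes 1 was called higher in each parity group, where 18.8% and 18.2% of all genes tested were called higher. The gene called was Socs3, the feedback inhibitor that STAT3 induces, at 1.37 ± 0.42 in virgin and 2.05 ± 0.42 in multipara mice. Its adjusted p values were 0.0251 and 0.00373 by edgeR's quasi-likelihood test. Socs3 stood at 20.5 to 34.7 CPM untreated and at 110, 90.4 and 59.4 CPM in virgin S-961 and 121, 118, 153 and 49.7 CPM in multipara S-961. Stat3, Jak1 and Ptpn11 were not called, and Stat3 stood at 221 CPM in multipara S-961 library 3 and at 89.4 to 125 CPM in all other libraries. Of the 14 acute phase and STAT3 target genes 11 passed the filter. Cebpb rose by 1.83 ± 0.26 and 2.26 ± 0.26, and in multipara mice Junb rose by 1.02 ± 0.27 and Il4ra fell by 1.40 ± 0.41, all at an adjusted p under 0.05 by edgeR's quasi-likelihood test. The medians of the 11 were -0.58 and -0.08. Their mean score was highest in untreated multipara library 1, at 3.21, and in multipara S-961 library 3, at 3.06, against 0.69 to 1.66 elsewhere. Reg3b stood at 0.491 CPM in the former and at 27.9 CPM in the latter.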

How the data were processed

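Islet RNA of each library was extracted with Trizol and made into stranded mRNA libraries. Per the labels and the submitters' processing notes, the authors aligned reads with STAR to mouse GRCm38 (mm10) and deposited expected counts per gene estimated with RSEM, with versions not given in the sources used here. These were rounded to whole numbers. All 55536 identifiers matched GENCODE M21, which gave coordinates and exon lengths. Genes were filtered with filterByExpr (minimum count 10, minimum total 15), scaled by TMM and tested with edgeR 4.0.16 by its quasi-likelihood test, with adjusted p values (Benjamini-Hochberg) called under 0.05. The parity comparisons used the libraries of their 2 groups, and the remaining comparisons used all 11. Log2 CPM used a prior count of 2. DESeq2 1.42.0, its size factors, no filter, left-out libraries, a replicate block, an acinar covariate and all 11 libraries were alternatives. The fits were tested on simulated data. Correlations with the acinar score used exact permutation over the 7 S-961 libraries. Members, lists and the rule for named genes (all members, and of each list the 3 most abundant genes and up to 5 called) were chosen with earlier results of these data known, and the share test, the intestinal list and the ratio without Amy2a5 after seeing the values. Promoter sequences are from RefSeq (GRCm38.p6), where all 7 members matched. Intervals and floors cover counting error only.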

Additional observations from a re-analysis of the deposited data

Results flagged for a closer look

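In the 4 multipara S-961 libraries, the group large enough to be screened for a sample far from the others, 4 members had such a sample. Reg1 was lowest in library 4, at 91.4 CPM against 278 to 296 CPM in the others. Reg3a was highest in library 3, at 5.48 CPM, as were Reg3b, at 27.9 CPM, and Reg3g, at 4.6 CPM. The nominal rate of the screen, about 1 in 20 groups, holds for normally distributed values and was not checked for CPM. The share of all genes marked in this group was not counted, so the 4 members have no background beside them. The members are also not independent, since all values of a library share its RNA. Library 4 also had the lowest acinar score of the 4, at 6.35, and library 3 the highest intestinal sum, at 383 CPM. Their part in these values was not tested.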

How the results depend on the processing

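With an acinar covariate, which runs almost parallel to the treatment, 0 members were called with S-961 in virgin or multipara mice. The log2 values then were 0.12 and 0.21 for Reg1, and those that turned sign were Reg3b (-3.01) and Reg3d (-0.12) in virgin mice and Reg2 (-7.17), Reg3a (-1.21), Reg3d (-0.98) and Reg3g (-2.83) in multipara mice. In multipara mice 4 members were called with no filter. Leaving out single libraries gave 1 to 2 called members in virgin mice and 1 to 4 in multipara mice. Under S-961 DESeq2 called 1 member between parity groups. Left-out libraries turned the sign of Reg2 (-3.54 to 0.55), Reg3a (-3.90 to 0.07) and Reg3b (-1.12 to 1.22) with S-961 in virgin mice, and of Reg3d in the interaction (-1.42 to 0.05).

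Replicate numbers did not pair the S-961 libraries, whose same-numbered deviations correlated at 0.056, 0.012 and 0.093. A fit with the replicate block turned Reg3b with S-961 in virgin mice to -0.72. It took the genes called between parity groups under S-961 from 0 to 342 and in the interaction from 0 to 34, with no Reg member among them.

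By Spearman's rho the relations of Reg1 and Reg3d with the acinar score were both 0.82 (adjusted exact permutation p = 0.0828). Without the 2 farthest libraries r was 0.97 and 0.93 (adjusted exact permutation p = 0.167 over 5 libraries). Left-out libraries gave 0.95 to 0.99 for Reg1, 0.84 to 0.95 for Reg3d and 0.64 to 0.87 for Reg2. A score without Amy2a5 left these at 0.97 and 0.89. All 11 libraries were not pooled, since treatment splits them into clusters.

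Over all genes, untreated multipara against virgin called 0, with no filter 3, with DESeq2 54, and 1738 and 53 without untreated multipara library 2 and 1. The interaction called 4 with no filter, 45 without multipara S-961 library 4 and 32 without untreated multipara library 2. With S-961 6562 and 6768 genes were called in virgin and multipara mice, 3 and 0 with the acinar covariate, and 3503, 3053 and 3618 without untreated virgin library 1 or 2 or untreated multipara library 1. Apart from Reg1 and Reg2, members hold at most 19 counts in any untreated library, so folds are imprecise there.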

Other observations

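Other cell types in the islet libraries moved less than the acinar enzymes. Over all genes tested, 18.8% were called higher and 17.6% lower with S-961 in virgin mice, and 18.2% and 19.4% in multipara mice. The counts below stand beside these shares and were not tested against them. Of 12 duct genes 2 were called higher and 1 lower with S-961 in virgin mice, and 5 higher and 1 lower in multipara mice, where Tff2, a mucosal trefoil peptide, rose by 3.94 on the log2 scale and Krt7, a duct keratin, fell by 0.56. Of 10 beta cell genes 3 were called higher and 3 lower in virgin mice and 4 higher and 3 lower in multipara mice. In the latter Ins1 and Ins2 fell by 1.82 and 1.99, and G6pc2, a glucose-6-phosphatase of beta cells, rose by 1.55. Of 6 genes of other endocrine cells 5 were called lower in virgin mice and 3 lower and 1 higher in multipara mice, with Ppy, pancreatic polypeptide, at -1.67.

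Of 8 immune genes 5 were called lower with S-961 in multipara mice and 1 in virgin mice, where untreated multipara library 1 had an immune score of 5.42 and untreated multipara library 2 of 2.55. Of 6 stromal genes 2, Col1a1 and Col3a1, were called higher in multipara mice, at 1.89 and 1.35, and none in virgin mice. Of 4 endothelial genes 1 was called lower in virgin mice and none in multipara mice. None of 6 proliferation genes was called, at scores of 0.55 to 5.12 with S-961 and 0.06 to 3.33 untreated. All calls here are from edgeR's quasi-likelihood test at an adjusted p under 0.05.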
